A study of Arabidopsis thaliana with 8 samples.

Results

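The rows described here are the annotated pseudogenes of Arabidopsis thaliana that gave a measurable signal in seedling roots. They were chosen as rows of the count table whose annotation names a transposable element or a pseudogene and whose counts summed over the 8 libraries reached 40, with rows of the At1NC to At5NC identifiers left out. The rule kept 139 of 40246 rows, and all 139 carry the word pseudogene. No row of the table is annotated as a transposable element, so no transposable element gene is among them, and they are called pseudogenes throughout. In all, 903 rows are annotated as pseudogenes, of which 502 had no count in any library and 764 stayed under the limit. Just inside it lay AT2G07726, AT1G27560 and AT1G42490 with 40, 41 and 42 counts, and just outside it AT2G44383, AT3G19025 and AT3G33004 with 39, 38 and 37 counts. Of the 139 pseudogenes, 138 have an entry in the RefSeq annotation of TAIR10.1, and all 138 are classed there as transcribed pseudogenes. AT3G07274 was not matched.

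The libraries came from whole roots of 7-day-old seedlings of the Columbia-0 accession, moved at day 6 for 24 h to new medium. The groups were bzr1-D at low Pi (1 µM phosphate), bzr1-D at adequate Pi (0.625 mM), wild type at low Pi and wild type at adequate Pi, each with 2 libraries labelled as biological replicates Exp 1 and Exp 2. BZR1 is a transcription factor activated by brassinosteroid hormones, and the dominant bzr1-D mutation makes it overactive. It is 1 line, and roots hold many cell types, so fewer cells of a type and less RNA per cell cannot be told apart. Polyadenylated RNA was read as single reads of 50 bases.

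A pseudogene is a copy or relic of a gene that has lost the ability to make the original protein, through frameshifts, stop codons or truncation. In plants many arise by duplication within families that turn over quickly, such as F-box proteins and disease resistance receptors. Others come from reverse-transcribed messenger RNA or from pieces of organelle DNA inserted in the nucleus. Some are still transcribed, while others are kept silent by DNA methylation and small RNAs, the same machinery that silences transposable elements.

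Total counts per library lay between 15947895 and 22150569, and the pseudogenes took 0.0990% to 0.125% of them. BZR1 itself averaged 28.9 ± 1.41 CPM in bzr1-D at low Pi, 31.2 ± 3.63 CPM in bzr1-D at adequate Pi, 32.5 ± 0.868 CPM in wild type at low Pi and 29.3 ± 1.79 CPM in wild type at adequate Pi (SD, n = 2 each), and a count cannot check the label of an allele that changes the protein. All 10 root markers and all 13 shoot markers (photosynthesis genes) were measured. The root markers summed to between 490 and 613 CPM in bzr1-D libraries, against 547 to 736 CPM in wild-type libraries. The shoot markers summed to between 111 and 129 CPM in bzr1-D, against 67.6 to 109 CPM in wild type, with no marker of either list averaging 0 in either genotype and 1 shoot marker called higher in bzr1-D (PSAF, a photosystem I subunit, log2 fold change 0.55). The median log2 fold change of the shoot markers was 0.49, against 0.0012 over all rows, and that of the root markers -0.057. With the Exp number as a block in the fit, 3 of 13 shoot markers (PSAF, RCA and GAPA) and 2 of 10 root markers (SHR and NRT2.1) were called higher. Over all rows, 1.97% were called higher in bzr1-D without the block and 6.32% with it. The part of shoot tissue in the genotype differences below was not tested.

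The pseudogenes were weakly expressed compared with other genes, and 1 of them dominated the total. Levels between genes are compared as CPM (counts scaled to library size with TMM factors) per kb of the gene's span. The median pseudogene stood at 1.49 CPM per kb (range 0.0627 to 81.0), against 7.82 CPM per kb for the other 20485 nuclear rows with at least 40 counts. By CPM, 51 pseudogenes averaged under 1, 63 between 1 and 10, and 25 at 10 or more. At 1 CPM a library held between 15.9 and 22.2 counts, so the values under 1 CPM rest on few counts.

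AT1G79245 (chromosome 1, 29804735 to 29809514, annotated as a pseudogene of an unknown protein) led with 81.0 CPM per kb and alone supplied 35.7% of all pseudogene counts. Its 4 bzr1-D libraries gave 316 and 303 CPM at low Pi and 340 and 410 CPM at adequate Pi, against 474 and 448 CPM in wild type at low Pi and 450 and 358 CPM in wild type at adequate Pi. The genotypes overlapped at adequate Pi but not at low Pi. AT5G44417, a relative of the FAD-dependent berberine bridge enzymes, followed with 52.3 CPM per kb. Then came AT3G24927 with 27.1, AT2G20724 with 24.9, AT1G70885 (a copy of part of MLP43, a major latex-like protein) with 22.4, AT3G30214 with 13.9, AT3G17110 with 13.5, AT3G07274 with 12.4, AT2G04110 with 12.2 and AT3G13965 with 11.9 CPM per kb. The 10 pseudogenes with most counts gave 59.7% of the pseudogene total.

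The pseudogenes were spread unevenly over the chromosomes. There were 40 on chromosome 1, 39 on chromosome 2, 32 on chromosome 3, 7 on chromosome 4 and 21 on chromosome 5, which is 17.0%, 18.5%, 16.2%, 5.83% and 15.0% of each chromosome's annotated pseudogenes. Median levels were 1.45, 1.49, 2.46, 1.01 and 1.3 CPM per kb in that order, against 7.17 to 8.23 CPM per kb for other rows of the same chromosomes. The spread within a chromosome was far wider than the differences between medians, with 0.217 to 81.0 CPM per kb on chromosome 1, 0.0627 to 27.1 on chromosome 3 and 0.124 to 52.3 on chromosome 5. The leading pseudogenes of chromosomes 4 and 2, AT4G04692 and AT2G20724, stood at 11.2 and 24.9 CPM per kb.

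**Figure D1:**
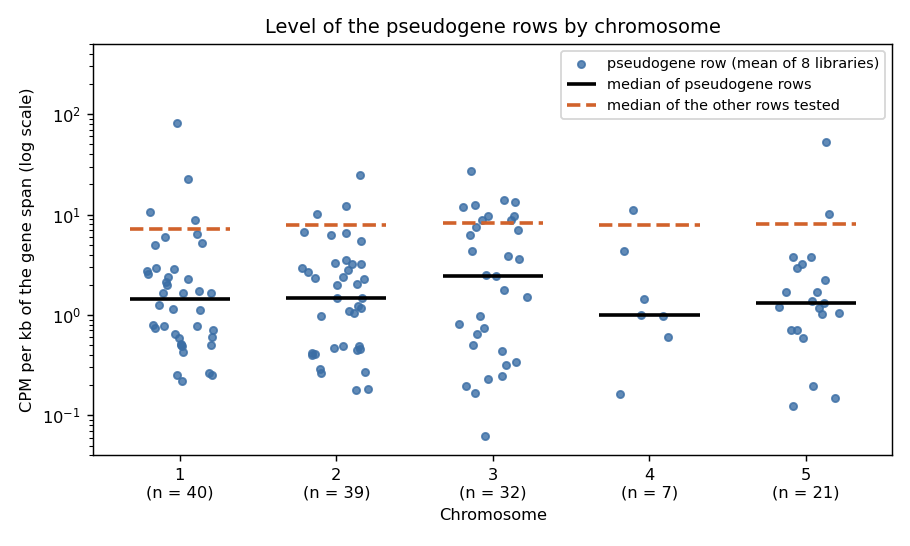
Mean level of each of the 139 pseudogenes over 8 libraries, in CPM per kb of gene span on a log scale, by chromosome. Solid bars are the medians of the pseudogenes (1.01 to 2.46) and dashed bars those of the other rows tested (7.17 to 8.23), which lie above them on all 5 chromosomes.

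What the pseudogenes resemble was read from the genome, by the best nucleotide match of each span to a stretch that overlaps a protein-coding gene. A match was found for 129 of them. The product or annotation named a ribosomal or translation protein for 11, an F-box protein for 9, a kinase for 8, a transporter for 4 and a disease resistance protein for 3. Because reads were 50 bases long, the share of 50-base windows that occur once in the genome bears on how well a pseudogene can be counted. It exceeded 90% for 112 pseudogenes and was under 50% for 14. On chromosome 2, 9 pseudogenes were made almost wholly of windows that also occur in an organelle genome, so their counts cannot be told apart from organelle transcripts. Among them AT2G07733 had 5.50% of windows unique. Of all 139, 10 overlapped a further row of the table, 6 of them one with at least 40 counts, and whether reads were counted by strand is unknown here, so such pairs cannot be told apart.

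The first comparison set low Pi against adequate Pi. Pi starvation is known to induce a defined set of transporters, phosphatases and lipid enzymes in roots. For the pseudogenes no response passed the test. In bzr1-D, in wild type, over both genotypes and in the difference of the responses, edgeR called 0 of 139 pseudogenes at an adjusted p under 0.05, and it called 0% of the 20676 rows tested in each of these. At an unadjusted p under 0.05 there were 2 pseudogenes in bzr1-D, against 1.32% of all rows, 2 in wild type, against 1.68%, 3 over both genotypes, against 2.22%, and 1 for the difference, against 0.803%. DESeq2 and limma-voom also called 0 pseudogenes, where DESeq2 called 20 rows of the whole table in bzr1-D (0.0967%), 28 in wild type (0.135%) and 57 over both genotypes (0.276%). With the Exp number in the edgeR fit, 3 rows were called in bzr1-D (0.0145%), 14 in wild type (0.0677%) and 26 over both genotypes (0.126%), and again 0 pseudogenes.

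The fitted responses scattered about 0 on every chromosome. Median log2 fold changes over both genotypes were -0.037 on chromosome 1, -0.032 on chromosome 2, -0.01 on chromosome 3, -0.13 on chromosome 4 and 0.027 on chromosome 5, and those of the other rows lay between -0.0045 and -0.0015. Of 139 pseudogenes, 61 had a positive value. The range ran to -0.81 at one end and 1.31 at the other, and 1 pseudogene had a log2 value beyond 1 in either direction, against 1.16% of all rows.

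That pseudogene was AT5G36270 (chromosome 5, 14292931 to 14293584), a relic of a dehydroascorbate reductase, an enzyme that recycles vitamin C. It gave 1.43 and 0.841 CPM in bzr1-D at low Pi, against 0.675 and 0.186 CPM in bzr1-D at adequate Pi. In wild type it gave 1.81 and 2.18 CPM at low Pi, against 1.01 and 0.635 CPM at adequate Pi. Within each genotype both low Pi libraries lay above both adequate Pi libraries. The log2 fold change was 1.35 (SE 0.57) in bzr1-D, 1.28 (SE 0.50) in wild type and 1.31 (SE 0.38) over both, with an unadjusted p of 0.00984 and an adjusted p of 1.00 by edgeR. AT4G21730, a relic of the vesicle fusion ATPase NSF, was the single pseudogene whose 4 low Pi libraries did not overlap the 4 adequate Pi libraries, a property of 1.39% of all rows. It gave 0.868 and 1.29 CPM in bzr1-D at low Pi, against 0.727 and 0.868 CPM in bzr1-D at adequate Pi. In wild type it gave 0.877 and 1.31 CPM at low Pi, against 0.455 and 0.544 CPM at adequate Pi. The separation is narrow, as the lower low Pi library and the higher adequate Pi library of bzr1-D both round to 0.868 CPM. The log2 fold change over both genotypes was 0.77 (SE 0.27, adjusted p = 1.00 by edgeR).

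Values in the other direction were as small. PERK2 (AT3G24400), a pseudogene described in the reference as a member of the proline-rich extensin-like receptor kinases, gave 0.613 and 0.729 CPM in bzr1-D at low Pi, against 1.35 and 0.992 CPM in bzr1-D at adequate Pi. Its wild-type libraries reached from 0.932 CPM, at low Pi, up to 1.63 CPM, at adequate Pi, and the groups overlapped. Its log2 fold change over both genotypes was -0.59 (SE 0.25). AT3G30875, a relic of a fatty acid desaturase gene, had -0.18 (SE 0.10). Among the smallest p in bzr1-D alone were AT1G14090, a TPR protein relic, at -0.37 (SE 0.15) and AT2G29010, a receptor kinase relic, at 0.38 (SE 0.17). In wild type alone they were AT2G20724 at -0.54 (SE 0.24) and AT5G37072, a relic of a ribosomal protein S4 gene, at -1.11 (SE 0.48). None of these passed the test, each with an adjusted p of 1.00 by edgeR.

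One library decides part of this. With wild type at low Pi of Exp 1 left out and the Exp number in the fit, edgeR called AT1G34330, a peroxidase relic, in wild type (log2 fold change 1.54, adjusted p = 0.00127) and AT1G34330, AT2G29010 and AT5G36270 over both genotypes (1.05, 0.43 and 1.64, adjusted p = 0.000761, 0.0496 and 0.0145). In that fit wild type at low Pi is a single library assumed to vary like the other groups, and 245 and 343 rows of the whole table were called.

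**Figure D2:**
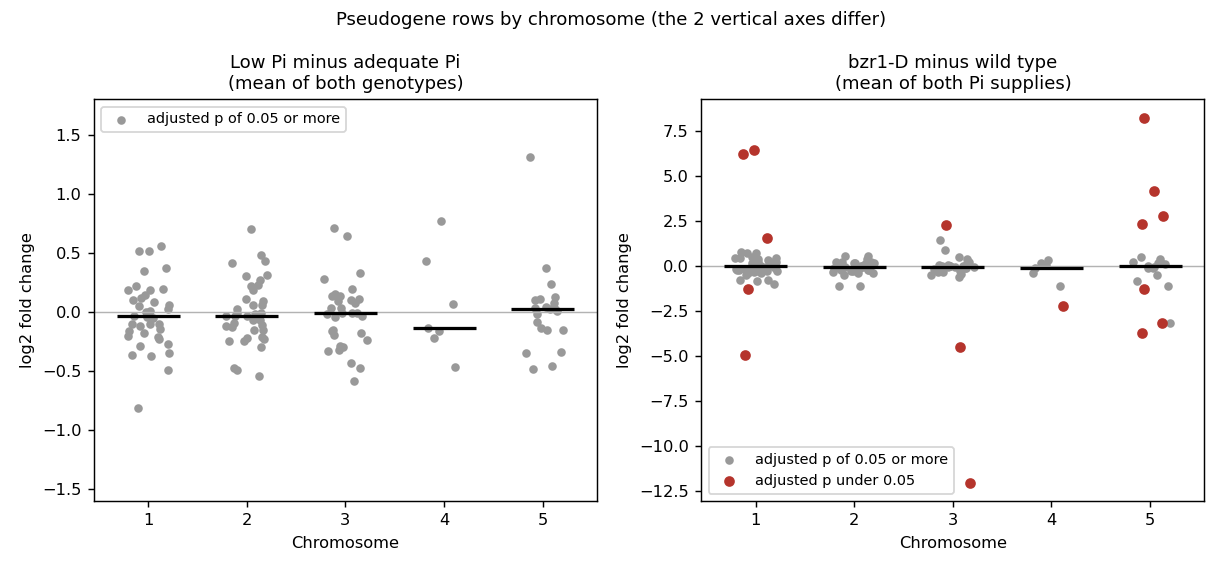
Log2 fold change of each pseudogene by chromosome, low Pi minus adequate Pi on the left and bzr1-D minus wild type on the right, on different vertical scales. Bars are medians and red points passed the test. No point is red on the left, and on the right 16 are, with 0 on chromosome 2.

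Between bzr1-D and wild type the picture was different. A small set of pseudogenes differed strongly, in both directions, while the median of the signed log2 fold changes stayed near 0. Over both Pi supplies edgeR called 16 of 139 pseudogenes, which is 11.5%, against 5.29% of all rows tested. In bzr1-D 8 were higher, against 1.97% of all rows, and 8 lower, against 3.32%. At adequate Pi 11 were called, against 2.02% of all rows, with 5 higher (against 0.711%) and 6 lower (against 1.31%). At low Pi 10 were called, against 2.13% of all rows, with 6 higher (against 0.798%) and 4 lower (against 1.33%). Of these, 9 were called at both supplies, and AT1G09486, AT1G27560, AT4G08093 and AT5G54206 passed only in the mean of both. The median log2 fold change over both supplies was -0.039 for the pseudogenes and 0.0012 for the other nuclear rows. Without regard to sign the medians were 0.25 and 0.12, and 15.8% and 5.02% lay beyond 1. For low Pi over both genotypes, where none was called, the unsigned medians were 0.16 and 0.070. The 123 pseudogenes that were not called had values between -3.14 and 1.44. Some of the 16 reached 40 summed counts only through the genotype where they are high. AT3G03855, AT1G31355 and AT5G38096 did so through wild type, with 8 or fewer counts in bzr1-D. AT1G27560, AT1G30940, AT5G35796 and AT5G54206 did so through bzr1-D, with 3 or fewer counts in wild type. The same limit applied to all rows tested.

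Counted as libraries that do not overlap, 27 pseudogenes separated the 4 bzr1-D from the 4 wild-type libraries, which is 19.4%, against 13.0% of all rows. At an unadjusted p under 0.05 there were 30 pseudogenes over both supplies, against 15.6% of all rows. The difference of the Pi responses between the genotypes was tested and called for none, so the genotype differences are given over both supplies below.

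The strongest loss was AT3G03855 (chromosome 3, 986948 to 990738), a relic of a TIR-NBS-LRR gene, the class of intracellular immune receptors that recognise pathogen effectors. It had 0 counts in all 4 bzr1-D libraries. Wild type gave 23.6 and 30.1 CPM at low Pi and 23.2 and 33.1 CPM at adequate Pi, 2173 counts in all. With a floor of 3 counts per library, 12 over the genotype, it was at least 168-fold lower in bzr1-D (adjusted p = 0.000148 by edgeR). All of its 50-base windows are unique in the reference genome, and its closest coding match, AT5G11250, is 72.4% identical over 2138 bases. The genes on either side, AT3G03810 and AT3G03860, had log2 fold changes of 0.17 and -0.078 and were not called. The 300 bases around its annotated start (250 before and 50 after, TAIR10.1, chr3:986691-986990, plus strand) are shown as the start of the pseudogene with the largest difference, and hold none of the BRRE, G-box and P1BS motifs described below.
AT3G03855: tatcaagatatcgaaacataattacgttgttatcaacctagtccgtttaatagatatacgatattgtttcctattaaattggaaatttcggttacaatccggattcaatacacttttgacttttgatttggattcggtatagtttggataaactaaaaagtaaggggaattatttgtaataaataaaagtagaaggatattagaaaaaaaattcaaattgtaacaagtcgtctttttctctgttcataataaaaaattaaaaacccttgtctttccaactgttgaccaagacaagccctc

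AT1G31355 (chromosome 1, 11228988 to 11229990) and AT1G09486 (chromosome 1, 3062430 to 3063731) are 98.2% identical to each other over 854 bases, and both match the translation protein gene AT1G57660 over 639 bases, AT1G09486 at 89.2% identity. Both were lower in bzr1-D. AT1G31355 gave 0.0511 and 0.0561 CPM in bzr1-D at low Pi and 0.208 and 0.124 CPM at adequate Pi, against 2.41 and 3.76 CPM in wild type at low Pi and 2.98 and 3.54 CPM in wild type at adequate Pi. Summed counts were 8 in bzr1-D and 250 in wild type, and the log2 fold change was -4.95 (SE 0.32, adjusted p = 0.000189 by edgeR). AT1G09486 gave 1.48 and 1.35 CPM in bzr1-D at low Pi and 2.02 and 1.12 CPM at adequate Pi, against 3.56 and 3.60 CPM in wild type at low Pi and 3.94 and 3.58 CPM in wild type at adequate Pi. The genotypes did not overlap for either one, and the second change was smaller, at -1.29 (SE 0.21, adjusted p = 0.0127). That call was lost without wild type at low Pi of Exp 2. Their coding relative AT1G57660 averaged 99.6 CPM in bzr1-D and 92.5 CPM in wild type and was not called. As 55.0% and 61.5% of their windows are unique, the counts of the pair are not fully separate. Their starts in the reference annotation are shown because the likeness extends over all 300 bases, 93.3% identical with 19 substitutions and 1 gap position, given in capitals (TAIR10.1, chr1:11228622-11228921 on the plus strand and chr1:3063347-3063646 on the minus strand). The window of AT1G31355 lies before its span in the table. That of AT1G09486 lies wholly inside its span, so it is not upstream sequence by the table's coordinates.
AT1G31355: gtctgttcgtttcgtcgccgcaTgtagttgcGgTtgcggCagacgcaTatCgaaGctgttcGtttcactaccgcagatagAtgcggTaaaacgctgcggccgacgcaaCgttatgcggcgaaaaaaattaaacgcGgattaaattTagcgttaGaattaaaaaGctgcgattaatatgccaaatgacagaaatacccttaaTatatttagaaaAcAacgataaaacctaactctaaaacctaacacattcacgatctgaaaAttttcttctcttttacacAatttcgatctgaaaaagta
AT1G09486: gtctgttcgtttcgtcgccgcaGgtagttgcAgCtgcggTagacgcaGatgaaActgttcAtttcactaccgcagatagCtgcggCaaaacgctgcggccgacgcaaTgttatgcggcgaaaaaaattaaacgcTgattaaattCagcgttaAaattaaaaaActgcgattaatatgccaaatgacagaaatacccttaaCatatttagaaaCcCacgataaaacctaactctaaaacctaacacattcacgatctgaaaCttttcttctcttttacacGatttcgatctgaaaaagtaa

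AT4G08093 on chromosome 4 has a similar window at its start in the reference, 69.5% identical to that of AT1G31355 over 239 bases. It was also lower in bzr1-D. It gave 0.204 and 0.336 CPM in bzr1-D at low Pi and 0.415 and 0.248 CPM at adequate Pi, against 1.70 and 0.599 CPM in wild type at low Pi and 2.37 and 1.18 CPM in wild type at adequate Pi. The groups did not overlap, but the 2 wild-type replicates lay far apart at both supplies. Its log2 fold change was -2.22 (SE 0.48, adjusted p = 0.0416 by edgeR), and 6 of the 8 fits without 1 library lost the call. The nearest tested gene before it, 101 kb away, ACS11 (AT4G08040, an ethylene synthesis enzyme), was called lower as well, at -3.25.

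AT3G06433 (chromosome 3, 1958901 to 1962344) is annotated as a relic of a nodulin MtN3 family gene, the family of SWEET sugar carriers. It gave 0.664 and 0.449 CPM in bzr1-D at low Pi and 0.415 and 0.496 CPM at adequate Pi, against 12.3 and 11.8 CPM in wild type at low Pi and 12.1 and 10.7 CPM in wild type at adequate Pi. The mean was 0.506 ± 0.110 CPM in bzr1-D and 11.7 ± 0.700 CPM in wild type (SD, n = 4 each), and the log2 fold change was -4.52 (SE 0.16, adjusted p = 1.09e-05 by edgeR). The pseudogene AT5G14840 on chromosome 5 is 96.9% identical to it over 828 bases and did not share the change. It averaged 25.4 ± 3.77 CPM in bzr1-D and 23.0 ± 1.82 CPM in wild type, and its log2 fold change was 0.14 (SE 0.12, not called). As 65.4% of the windows of AT3G06433 and 55.3% of those of AT5G14840 are unique, the counts of this pair are not fully separate. The test of whether the differences of the pair differ from each other was not run.

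The other 3 pseudogenes that fell lie on chromosome 5. AT5G42730, annotated as similar to ACT domain and F-box proteins, averaged 0.492 ± 0.0392 CPM in bzr1-D and 4.56 ± 0.342 CPM in wild type, a log2 fold change of -3.19 (SE 0.17). Over 1131 bases it matches, at 99.5% identity, a stretch that overlaps the much shorter gene AT5G23411 (chromosome 5, 7886644 to 7886790). As 19.0% of its windows are unique, its counts are uncertain. AT5G38096, a methyltransferase relic, rested on 7 counts in bzr1-D and 106 in wild type, a ratio of wild type over bzr1-D of 14.1 (95% counting interval 6.59 to 35.8). Its log2 fold change was -3.74, and -5.62 without bzr1-D at adequate Pi of Exp 1, still called. AT5G28330 fell less, to 1.64 ± 0.102 CPM in bzr1-D, against 4.08 ± 0.593 CPM in wild type, with a log2 fold change of -1.30 (SE 0.17). Its nearest match, AT5G28390, an RNA-binding protein gene 99.3% identical to it, had -0.70 and was not called, and 24.0% of the pseudogene's windows are unique.

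Among the pseudogenes that rose, AT5G44417 (chromosome 5, 17901832 to 17903346) had by far the highest level. It is a relative of AT5G44440, a berberine bridge-type oxidase gene, at 84.9% identity over 1565 bases. It gave 129 and 143 CPM in bzr1-D at low Pi and 117 and 165 CPM at adequate Pi, against 20.2 and 21.2 CPM in wild type at low Pi and 16.6 and 21.7 CPM in wild type at adequate Pi. The lowest bzr1-D library stood above the highest wild-type library by a wide margin. The means were 139 ± 20.7 CPM and 19.9 ± 2.32 CPM (SD, n = 4 each), 6.96-fold apart, with a log2 fold change of 2.80 (SE 0.15, adjusted p = 6.85e-05 by edgeR). The tested genes on either side, AT5G44410 and AT5G44450, had -0.11 and 0.11 and were not called. Its start (TAIR10.1, chr5:17903331-17903630, minus strand) is shown as that of the most abundant pseudogene that changed, and it holds none of the 4 motifs searched.
AT5G44417: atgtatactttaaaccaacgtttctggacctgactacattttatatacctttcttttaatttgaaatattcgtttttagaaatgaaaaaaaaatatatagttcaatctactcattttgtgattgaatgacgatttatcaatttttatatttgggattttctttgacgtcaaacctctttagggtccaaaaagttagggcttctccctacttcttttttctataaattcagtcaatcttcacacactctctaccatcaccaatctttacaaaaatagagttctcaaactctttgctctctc

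AT5G40920 (chromosome 5, 16400654 to 16404325) is, like AT3G03855, a relic of a TIR-NBS-LRR immune receptor, and it went the other way. It gave 20.1 and 23.2 CPM in bzr1-D at low Pi and 20.3 and 28.7 CPM at adequate Pi, against 5.21 and 5.34 CPM in wild type at low Pi and 3.49 and 4.63 CPM in wild type at adequate Pi. The genotypes did not overlap, and the log2 fold change was 2.31 (SE 0.16, adjusted p = 0.000218 by edgeR). Its coding neighbour and closest match AT5G40910, 85.9% identical over 3612 bases, averaged 29.5 CPM in bzr1-D and 38.3 CPM in wild type and was not called. The neighbour on the other side of the pseudogene, AT5G40930, was called lower, at -0.47. AT1G16550 (chromosome 1, 5665907 to 5668209) matches CDC48C, an AAA-type ATPase that unfolds proteins, at 86.7% over 1060 bases. It averaged 22.0 ± 2.49 CPM in bzr1-D and 7.50 ± 0.515 CPM in wild type, a log2 fold change of 1.55 (SE 0.10, adjusted p = 0.000213). CDC48C itself (AT3G01610) stood at 31.0 CPM in bzr1-D and 30.3 CPM in wild type.

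Both F-box pseudogenes that rose were near silence in wild type. F-box proteins choose the targets of SCF ubiquitin ligases. AT1G30940 gave 2.20 and 3.20 CPM in bzr1-D at low Pi and 3.94 and 3.97 CPM at adequate Pi, against 0.0548 and 0.0545 CPM in wild type at low Pi and 0.0505 and 0 CPM in wild type at adequate Pi. Counts were 240 in bzr1-D and 3 in wild type, a ratio of 86.2 (95% counting interval 29.1 to 421). Its log2 fold change was 6.24, and 7.34 without wild type at adequate Pi of Exp 1, still called. The neighbouring F-box pseudogene AT1G30935, 81.2% identical over 1377 bases, averaged 1.87 ± 0.289 CPM in bzr1-D and 1.67 ± 0.406 CPM in wild type and was not called. AT1G27560 had 41 counts in bzr1-D and 0 in all 4 wild-type libraries, at least 3.68-fold higher in bzr1-D. It lay just inside the limit on summed counts and passed it through its bzr1-D counts alone. The call was lost without bzr1-D at adequate Pi of Exp 1, and likewise without that of Exp 2. Its surroundings differed too. The F-box genes AT1G27540 and AT1G27580, the second of which is 91.3% identical to it, had log2 fold changes of 3.02 and 5.27, and AT1G27565 had 0 CPM in bzr1-D and 3.04 CPM in wild type, all called.

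The remaining 3 pseudogenes that rose had low levels. AT5G35796, a protein kinase relic, had 143 counts in bzr1-D and 0 in all wild-type libraries, at least 12.8-fold higher in bzr1-D. It passed the limit on summed counts through its bzr1-D counts alone. Its libraries gave 1.17 and 2.75 CPM in bzr1-D at low Pi and 1.97 and 2.05 CPM at adequate Pi. Its closest match on chromosome 1, the kinase gene AT1G65250, was called in the other direction, at -1.98. AT5G54206, a relative of OPR1, a 12-oxophytodienoate reductase, had 42 counts in bzr1-D and 2 in wild type, a ratio of 22.6 (95% counting interval 5.88 to 193). This pseudogene also lay close to the limit on summed counts and passed it through its bzr1-D counts. Its log2 fold change was 4.16, with 5.35 without wild type at low Pi of Exp 1 and 5.24 without wild type at adequate Pi of Exp 2, the libraries that hold its 2 wild-type counts, and the call was lost without bzr1-D at adequate Pi of Exp 1. RSU1 (AT3G48130), a ribosomal protein L13 homologue on chromosome 3, averaged 2.56 ± 0.820 CPM in bzr1-D and 0.537 ± 0.172 CPM in wild type, a log2 fold change of 2.27 (SE 0.32, adjusted p = 0.00745 by edgeR).

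**Figure D3:**
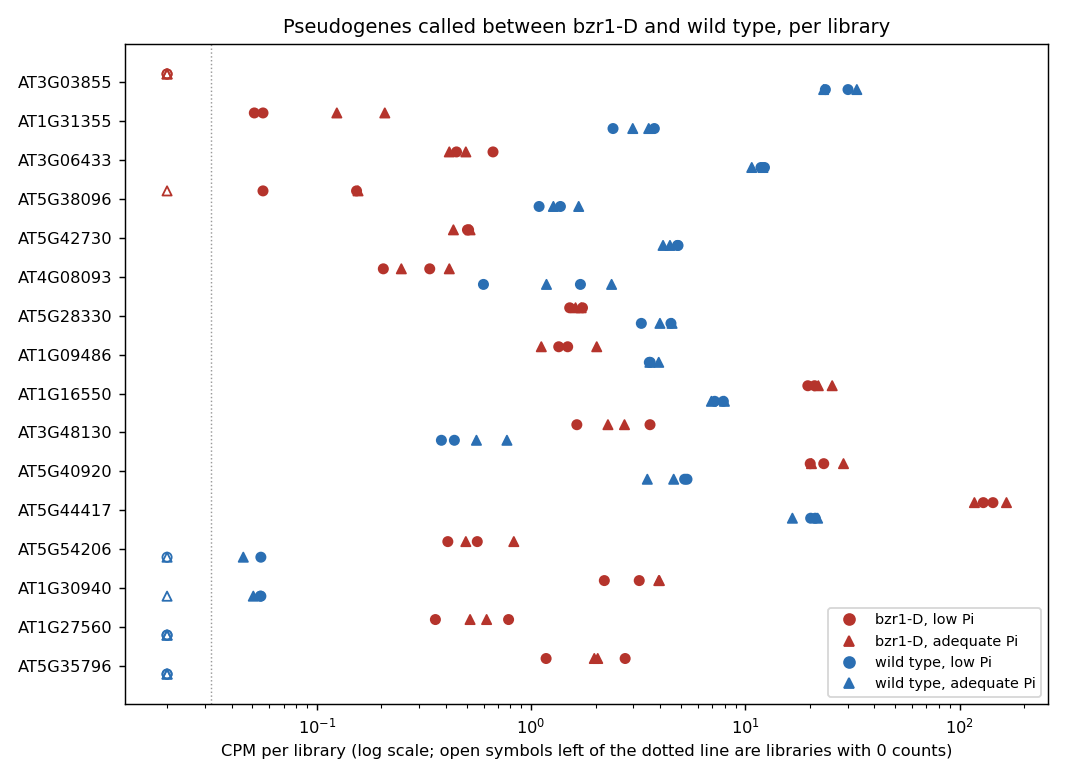
CPM in each of the 8 libraries (log scale) for the 16 pseudogenes called between bzr1-D and wild type, ordered by log2 fold change. Red symbols are bzr1-D and blue wild type, circles low Pi and triangles adequate Pi. Open symbols left of the dotted line are libraries with 0 counts, and red and blue do not mix in any of the 16.

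With the Exp number as a block in the fit, which the libraries' pairing allows, 28 pseudogenes were called over both supplies, against 14.8% of all rows, with 13 higher (against 6.32%) and 15 lower (against 8.52%). They include all 16 above. The 12 that joined had absolute log2 fold changes between 0.25 and 3.21 in the block fit. On the higher side were AT3G18777 (0.91), AT1G54660 (0.78), AT1G23470 (0.72), AT1G16140 (0.44) and AT3G30875 (0.25). On the lower side were AT5G42445 (-3.21), AT2G27440 (-1.16), AT2G04110 (-1.11), AT1G19420 (-0.81), AT1G70885 (-0.37), AT3G17715 (-0.34) and AT1G79245 (-0.34). At adequate Pi the block gave 19 calls, against 7.19% of all rows, with 10 higher (against 2.65%) and 9 lower (against 4.54%). At low Pi it gave 21 calls, against 8.64%, with 10 higher (against 3.63%) and 11 lower (against 5.01%). Without the block, the most abundant pseudogene, AT1G79245, had an adjusted p of 0.184, and with it 0.0280.

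By chromosome the calls were uneven. Over both supplies, 5 of 40 pseudogenes were called on chromosome 1 (12.5%, against 7.09% of other rows), 0 of 39 on chromosome 2 (against 1.28%), 3 of 32 on chromosome 3 (9.38%, against 3.88%), 1 of 7 on chromosome 4 (14.3%, against 1.61%) and 7 of 21 on chromosome 5 (33.3%, against 9.36%). The pseudogene share was the higher on chromosomes 1, 3, 4 and 5, where chromosome 4 rests on 1 call. Chromosomes 5 and 1 also had the highest shares among other rows. On chromosome 2, 2 had an unadjusted p under 0.05 by edgeR. The 39 there include the 9 whose counts cannot be told apart from organelle transcripts. With the block, chromosome 2 had 2 calls of 39, which is 5.13%, against 7.59% of other rows. Median log2 fold changes stayed near 0 on all of them, at -0.0064, -0.042, -0.044, -0.11 and 0.021 on chromosomes 1 to 5.

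**Figure D4:**
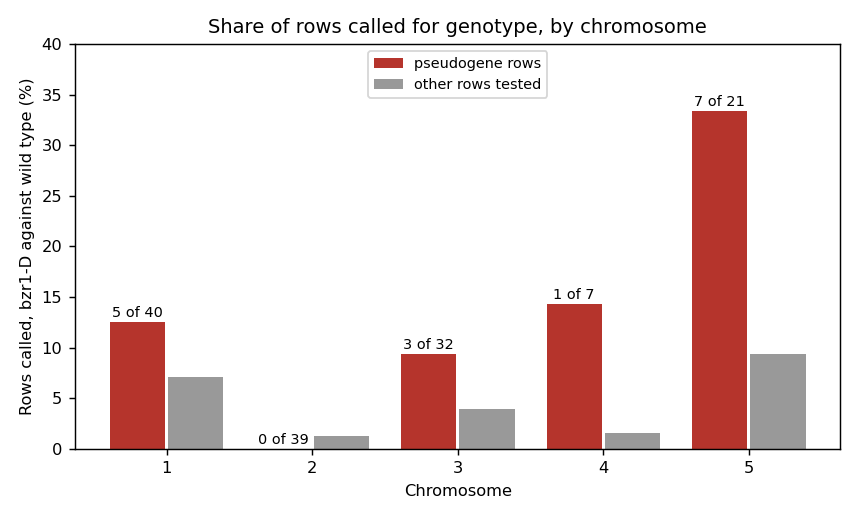
Share of pseudogenes (red) and of all other rows tested (grey) called between bzr1-D and wild type, by chromosome, in percent. Numbers above the red bars are pseudogenes called of those tested. The red bar is the higher on chromosomes 1, 3, 4 and 5, and on chromosome 2 it is at 0.

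Summed levels give the total pseudogene signal of each chromosome. On chromosome 5 the 21 pseudogenes added up to 192 and 216 CPM in bzr1-D at low Pi and 181 and 245 CPM at adequate Pi, against 77.9 and 80.5 CPM in wild type at low Pi and 72.6 and 74.3 CPM in wild type at adequate Pi. AT5G44417 made most of the gap. Without it the sums averaged 70.0 ± 8.00 CPM in bzr1-D and 56.4 ± 2.87 CPM in wild type (SD, n = 4 each). Chromosome 3 summed to 218 ± 13.9 CPM in bzr1-D and 253 ± 4.83 CPM in wild type, and chromosome 1 to 468 ± 52.9 CPM in bzr1-D and 540 ± 52.3 CPM in wild type. Without AT1G79245, chromosome 1 summed to 126 ± 5.46 CPM in bzr1-D and 108 ± 1.78 CPM in wild type. Chromosomes 2 and 4 summed to 178 ± 8.83 and 23.5 ± 3.71 CPM in bzr1-D, against 183 ± 4.36 and 24.7 ± 2.97 CPM in wild type.

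Genes called between the genotypes lay in stretches rather than evenly along the chromosomes, and the pseudogenes called lay mostly in or near these stretches. Each chromosome was divided into bins of 1 Mb, and in each bin the share of other rows called was counted. This share had a median of 11.04% around the 16 pseudogenes called (lowest 1.06%, next 7.14%, highest 28.5%) and of 2.13% around the 123 not called. RSU1 on chromosome 3 was the 1 with the lowest share. The next, AT4G08093, lies in a bin where 1 of 14 other rows was called. Bins where at least 10% of other rows were called, a limit set after the values were seen and the single one tried, number 10 on chromosome 1, 1 each on chromosomes 2 and 3, 0 on chromosome 4 and 14 on chromosome 5, with the longest run at 12 to 22 Mb of chromosome 5. The bins of chromosomes 2 and 3 among them rest on 2 of 20 and 1 of 9 other rows. In these 26 bins 9 of 34 pseudogenes were called (26.5%), against 16.3% of other rows. In the other 95 bins 7 of 105 were called (6.67%), against 2.91% of other rows. By the order of locus numbers, PSAF, the 1 shoot marker called without the block, lies in the bin that starts at 11 Mb of chromosome 1 (15.8%).

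The 7 calls outside the dense bins were AT1G16550, AT1G27560, AT3G03855, AT3G06433, AT3G48130, AT4G08093 and AT5G54206. Of the 32 nearest tested rows on either side of the 16, 7 were called (21.9%, against 5.29% of all rows), 3 of them with the sign of the pseudogene and 4 with the other. These rows lay a median of 3.72 kb away and at most 101 kb, the distance of ACS11, and 6 pseudogenes had a called neighbour. The called neighbours not named above were AT1G16540 (-0.36, beside AT1G16550), AT1G31360 (-0.64, beside AT1G31355) and AT3G06430 (0.45, beside AT3G06433). The part of these stretches in the pseudogene calls was not tested. As a rough mark of regions around centromeres, bins were taken where at least 50% of the rows have an empty annotation and are pseudogenes in the reference. These bins held 9 of the pseudogenes, of which 2 were called (22.2%, against 10.9% of other rows there). Elsewhere 14 of 130 were called (10.8%, against 5.22% of other rows). The split depends on the limit. The bin that starts at 3 Mb of chromosome 2, with 41.7% such rows, counts as elsewhere. It held 9 pseudogenes, 0 of them called. These are the 9 whose counts cannot be told apart from organelle transcripts.

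**Figure D5:**
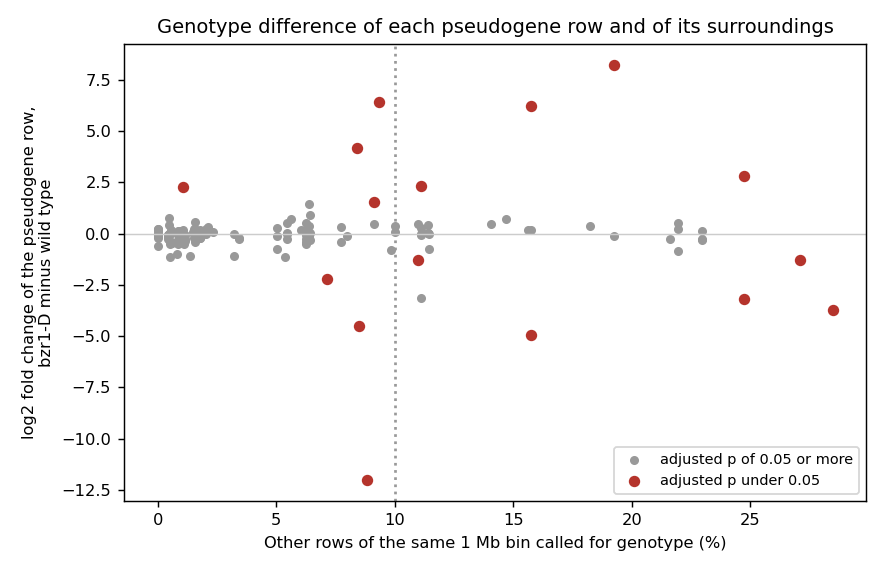
Log2 fold change of each of the 139 pseudogenes, bzr1-D minus wild type, against the share of the other rows in its 1 Mb bin that were called, in percent. Red points passed the test, and the dotted line marks 10%. Of the 16 red points, 9 lie right of the line and 1, RSU1, lies at 1.06%.

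BZR1 binds the BR response element (BRRE, CGTGTG or CGTGCG) and E-boxes (CANNTG, which include the G-box CACGTG), and the PHR1 family binds P1BS (GNATATNC) in Pi-responsive promoters. These letters were searched on both strands from 250 bases before to 50 after the start annotated in the reference. That start can lie inside the span in the table, as for AT1G09486. A BRRE was present in 7 of 138 pseudogenes (5.07%), against 7.69% of 37897 nuclear genes and pseudogenes. E-boxes were present in 59.4%, against 62.9%, G-boxes in 4.35%, against 6.46%, and P1BS in 5.80%, against 6.13%. Of the 16 pseudogenes called, AT5G28330 has a BRRE, 11 have an E-box, and none has a G-box or P1BS. Such a match is a description of the letters and not evidence of binding.

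Silencing genes were looked at because pseudogenes and transposable elements can be silenced by the same pathway. Of 45 listed genes, 43 had at least 40 counts. For genotype over both supplies, 2 of the 43 were called higher (SGS3 and DML2), against 1.97% of all rows. NRPD1 was the 1 called lower, against 3.32% of all rows. The median over the list was 0.0012, and that over all rows 0.0012. SGS3 (AT5G23570), a cofactor of secondary small RNA synthesis, averaged 39.5 CPM in bzr1-D and 12.1 CPM in wild type, a log2 fold change of 1.71 (adjusted p = 0.000134 by edgeR). DML2 (AT3G10010), a DNA demethylase, averaged 13.3 CPM in bzr1-D and 7.65 CPM in wild type, at 0.79 (adjusted p = 0.00550). NRPD1 (AT1G63020), the largest subunit of RNA polymerase IV, averaged 5.13 CPM in bzr1-D and 7.93 CPM in wild type, at -0.63 (adjusted p = 0.0189). By the order of locus numbers, NRPD1 lies in the bin that starts at 23 Mb of chromosome 1, where 11.4% of other rows were called. SGS3 lies in the bin that starts at 7 or 8 Mb of chromosome 5 (12.9% and 18.2%). DML2 lies in the bin that starts at 2 or 3 Mb of chromosome 3 (6.37% and 7.26%). The part of these surroundings in the 3 calls was not tested.

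Of the others named, none was called without the block. DDM1 (AT5G66750), a chromatin remodeller needed for methylation of repeats, had a log2 fold change of 0.010, and MET1 (AT5G49160), the CG methyltransferase, 0.036. NRPE1 (AT2G40030) of RNA polymerase V had 0.17 and the demethylase ROS1 (AT2G36490) -0.36. UPF1 (AT5G47010), a helicase of nonsense-mediated decay, which degrades RNA with early stop codons, had 0.045. With the block, DCL2 (0.33) and AGO2 (0.26) joined on the higher side, and ROS1 (-0.36) and IBM1 (-0.27) on the lower side. That made 4 of the 43 higher, against 6.32% of all rows, and 3 lower, against 8.52%.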

How the data were processed

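The deposited values are raw counts per gene over 40246 rows and 8 libraries. Per the submitters' processing notes, the authors used TopHat2 2.0.11, HTSeq 0.6.1 and DESeq2 1.2.8 with the TAIR10 build, and further settings of these tools are unknown here. Rows with at least 40 counts in all (20676) were tested with edgeR 4.0.16 (quasi-likelihood, robust, TMM, R 4.3.3), with 1 coefficient per group and no block, and adjusted by Benjamini and Hochberg over all 20676 at 0.05. "Called" means an adjusted p under 0.05. The comparisons were low Pi against adequate Pi in each genotype and over both, bzr1-D against wild type at each supply and over both, and how the Pi response differed between genotypes. The labels call the replicates biological without naming separate cultures, so p-values measure the spread between these libraries. Intervals and floors (3 counts per library) cover counting error only.

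Libraries with the same Exp number deviated together (correlations 0.271 to 0.613 over all 6 pairs of groups), so the numbers were taken to pair the libraries, from the data and not from a labelled batch or day. The fitted biological variation between libraries (edgeR's common BCV) came to 0.170, against 0.0861 once Exp was a block. Alternatives were the block, RLE size factors, filterByExpr, no filter, DESeq2 1.42.0, limma-voom (limma 3.58.1) and each library left out, with and without the block. DESeq2 with the block, and organelle rows left out, were added after the data were seen.

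The pseudogenes and gene lists were chosen with earlier results of these data known. Named were the 10 highest per kb and the highest on each chromosome, the called ones (at most 8 per direction, or the 2 smallest p per direction where none was called), the largest block calls, those near 0 in 1 genotype, and their neighbours. AT1G34330, the other block calls, the motifs, the 50-base windows, the matches, the pairs and the bins of 1 Mb were chosen after values were seen. Planned classes of transposable elements, and bins built on that annotation, could not be used because no row carries it. Coordinates of genes are those of the table. Promoter coordinates and sequences are from the RefSeq TAIR10.1 genome, in which 99.8% of 32940 matched nuclear rows start within 2 kb of the deposited start. Matches were found with blastn 2.17.0, and Python 3.11.15, pandas 2.3.3 and matplotlib 3.10.9 made the tables and figures. The fit was tested on simulated data.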

Additional observations from a re-analysis of the deposited data

Results flagged for a closer look

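The Pi response had one sign in both Exp pairs of bzr1-D and the other sign in both pairs of wild type for 22 of 139 pseudogenes (15.8%), against 11.3% of all rows tested, and the 6 of these that the naming rule covers are given here. The values below are the difference of the fitted log2 responses, bzr1-D minus wild type, and edgeR's interaction test gave each an adjusted p of 1.00. AT1G06370 had -0.95, with responses of -0.43 and -0.45 in bzr1-D and 0.66 and 0.30 in wild type (unadjusted p = 0.0325 by edgeR). AT2G07733, which shares most of its sequence with an organelle genome, had -1.02. AT5G06278 had 1.32, and both of its bzr1-D responses were positive. AT1G30940 had -1.56, on 3 wild-type counts in all. AT5G40920 had -0.55 and AT1G79245, the most abundant pseudogene, had -0.47.

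SADHU5-2 (AT5G27927.1), a row with an empty annotation that was not among the pseudogenes compared, averaged 18.1 CPM in bzr1-D and had 0 counts in all 4 wild-type libraries.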

How the results depend on the processing

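No called result reversed under any alternative run. With the replicate block, which pairs libraries by Exp number, edgeR called 19 pseudogenes between bzr1-D and wild type at adequate Pi, 21 at low Pi and 28 over both, against 11, 10 and 16 without it. DESeq2 with the block, added after the data were seen, called 16 at low Pi. Leaving out 1 library at a time gave 8 to 10 calls at adequate Pi, 8 to 10 at low Pi and 13 to 16 over both, and with the block 14 to 21, 14 to 19 (16, 17, 18 and 19 among them) and 20 to 26 (25 without bzr1-D at low Pi of Exp 1). For Pi it gave 0 calls in every comparison, and with the block 0 to 1 in wild type and 0 to 3 over both genotypes, all without wild type at low Pi of Exp 1. AT4G08093, AT1G27560 and AT5G54206 lost the call without bzr1-D at adequate Pi of Exp 1, AT1G27560 also without that of Exp 2, AT1G09486 without wild type at low Pi of Exp 2, and AT4G08093 also under limma-voom; the cause was not tested. The block kept all 16 calls. With 2 libraries a group, 51 pseudogenes under 1 CPM were measured on few counts.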

Other observations

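Rows with an empty annotation in the table that the RefSeq annotation classes as pseudogenes number 3903, and the reference text names a retrotransposon or transposon for 29 of them. Of the 3903, 3140 had no count and 153 had at least 40. Between bzr1-D and wild type 18 were called higher and 27 lower, 29.4% of the 153, against 5.29% of all rows, with 53 called under the Exp block. In the bins of 1 Mb where at least 10% of other rows were called, 31 of 56 were called (55.4%, against 16.3% of other rows), and elsewhere 14 of 97 (14.4%, against 2.91%). AT1G24370.1 averaged 42.0 ± 6.36 CPM in bzr1-D and 0.678 CPM in wild type, and AT5G55896.1 6.48 ± 0.508 CPM in bzr1-D and 53.3 ± 1.53 CPM in wild type (SD, n = 4 each).

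Sadhu elements are non-coding retrotransposons of Arabidopsis, and their rows were picked after their values were seen. Of 12 rows with counts 10 were tested and 7 called, where 5.29% of all rows were. SADHU6-1 (AT3G02515.1) averaged 66.0 CPM in bzr1-D and 2.75 CPM in wild type, a log2 fold change of 4.60. SADHU1-2 (AT1G30835.1) averaged 0.261 CPM in bzr1-D and 38.4 CPM in wild type, at -7.44. SADHU1-3 (AT5G28626.1) had 1.38, SADHU5-1 (AT4G01525.1) 1.12 and SADHU4-1 (AT5G28913.1) 0.74, while SADHU2-1 (AT1G35112) had 0 CPM in bzr1-D and 1.49 CPM in wild type. The 3 tested rows that were not called were AT2G10410 at -0.11, AT3G42658.1 at -0.29 and AT3G58865.1 at 0.016. Of the called rows, SADHU1-2, SADHU2-1, SADHU5-2, SADHU1-3 and SADHU4-1 lie in bins of 1 Mb where at least 10% of other rows were called. SADHU6-1 and SADHU5-1 lie outside such bins. The part of these stretches in the Sadhu calls was not tested.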
